A study of Homo sapiens with 18 samples.

Results

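The genes that break down tryptophan and the genes around the aryl hydrocarbon receptor were followed across cultures and tumors of Saos-2 cells, an established human osteosarcoma (OS) line. The set holds 9 members, TDO2, IDO1, KYNU, KMO, AHR, AHRR, TIPARP, CYP1A1 and CYP1B1, of the 50119 genes listed, and they were selected by gene name with results of these same libraries already known. TDO2 in particular was chosen for its difference between 3D cell-printed tissue and tumor, so the values of all 9 members are a description, and their counts past the threshold used for all genes are given once with nothing read from them.

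RNA was sequenced from 18 libraries, 3 in each of 6 groups, all labelled genotype WT. D-2 were 2D cells grown flat for 14 days, D-3 were 3D cells mixed into Matrigel for 14 days, and DP-3 was 3D cell-printed tissue, in which cells were printed in a gel of methacrylated gelatin and alginate and kept for 14 days. DP-3 day 1 was the same printed tissue after 1 day. FIT was fresh isolated tissue, a tumor that grew in vivo after Saos-2 cells in Matrigel had been placed under the skin of female BALB/c nude mice, 4 weeks old at the start, and was taken at week 2 (labelled day 14). IT was isolated tissue, pieces of such tumors cultured on Matrigel for 14 days. By the study's methods a tumor was split between culture and fresh tissue, so IT and FIT libraries may share tumors, but the labels do not say which, and the fits treat them as independent. Every culture was compared with FIT, the 14-day printed tissue with its day 1, and D-3 and DP-3 with D-2, which asked how far each way of growing the cells changed these genes. A single line was used throughout, BALB/c nude mice lack T cells, and IT and FIT can contain mouse cells whose reads may align to human genes. The labels number the replicates but do not say that they came from separate cultures or tumors, so the spread between them may be technical.

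Tryptophan is broken down mainly through the kynurenine pathway. TDO2, an enzyme best known from the liver, and IDO1, which interferon-gamma induces in many tissues, open the tryptophan ring and carry out the same first step. KMO and KYNU act further along the route that ends in NAD. Kynurenine and several other tryptophan products bind AHR, a receptor and transcription factor that pairs with ARNT and switches on CYP1A1, CYP1B1, TIPARP and AHRR, and TIPARP and AHRR hold the receptor back. In tumors the pathway is known for lowering tryptophan and for damping T cells.

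Levels are given as FPKM, fragments scaled by gene length and by library total, so that they can be set side by side between genes. Differences are log2 fold changes ± standard error (SE) from edgeR, fitted on the estimated counts of all genes in the 6 libraries of a comparison. The total estimated count ranged from 23721666 in FIT replicate 3 to 79082786 in D-2, and the next lowest was 50327345. A gene at or below 12 estimated counts was taken as not detected, a limit set by counting error alone. It equals about 3 read pairs if 4 counts stand for 1 pair, which is an assumption. FIT replicate 3 also had the highest summed level of 7 skeletal muscle markers, 31.7 FPKM against 0.551 to 0.923 FPKM in the other FIT libraries and at most 0.421 FPKM in any library of the other groups. Most of that sum was MYH13, at 26.7 FPKM, and MYH2, at 3.61 FPKM. CKM and MYH4 were at 0 in that library, and TNNT3 (0.0498 FPKM) was lower than in FIT replicates 1 and 2 (0.0996 and 0.430 FPKM). The DP-3 day 1 libraries listed 34593 to 34919 genes above 0 counts, more than the 22915 to 29631 of the other groups. Markers of the labelled cell type were checked. Of 7 osteoblast and Saos-2 markers, ALPL, SP7 and IBSP stayed below 0.15 FPKM in all 18 libraries, which goes against an osteoblast-like line, whereas RUNX2 lay between 0.610 and 2.41 FPKM and COL1A1 between 1.79 and 21.0 FPKM.

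TDO2 (ENSG00000151790, chromosome 4, 155854738 to 155920406, plus strand, GRCh38) was above the limit of detection in all 18 libraries. Its FPKM was 1.14, 1.03 and 1.41 in D-2. It was 1.43, 2.45 and 1.82 in D-3. In the printed tissue it was 1.62, 1.72 and 1.98 on day 1 and 3.04, 4.22 and 7.61 on day 14. FIT was low in every library, at 0.0685, 0.116 and 0.289 FPKM, below each library of the printed tissue on either day and of both kinds of cells. IT did not behave as 1 group, since replicates 1 and 3 had 0.0512 and 0.209 FPKM and replicate 2 had 9.75 FPKM, the highest of the 18 libraries. Ordered by mean, DP-3 came first, followed by IT, D-3, DP-3 day 1, D-2 and FIT. Only the last 2 steps in that order, DP-3 day 1 over D-2 and D-2 over FIT, separated neighbours without overlap.

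The log2 fold change of TDO2 against FIT was 5.18 ± 0.62 in DP-3. It was smaller in cells, 3.57 ± 0.55 for D-3 and 3.11 ± 0.52 for D-2. For IT it was 4.46 ± 1.77, and without IT replicate 2 it was -0.22. From day 1 to day 14 of printed tissue the difference was 1.76 ± 0.35, and the 3 libraries of day 14 were all above those of day 1. DP-3 was above D-2 by 2.04 ± 0.36, while D-3 was above D-2 by 0.42 ± 0.24. Since these are bulk samples, more cells with TDO2 and more TDO2 RNA per cell cannot be told apart. In IT replicate 2 the summed level of 6 fibroblast markers was 18.5 FPKM, against 10.4 and 15.6 FPKM in the other IT libraries. PDGFRA made up most of it, at 17.85 FPKM, against 13.99 and 9.241 FPKM in replicates 1 and 3. PI16 was also higher, at 0.1387 against 0.08417 and 0 FPKM. DPT was lower, at 0.191 against 1.104 and 0.8907 FPKM. LUM and COL3A1 lay between the other IT libraries, and DCN was at most 0.007263 FPKM in IT. The 7 osteoblast and Saos-2 markers summed to 14.9 FPKM in IT replicate 2, mostly COL1A1, against 3.93 and 5.65 FPKM. The 7 macrophage markers summed to 49.5 FPKM there, against 49.0 and 70.2 FPKM, with PTPRC and AIF1 below 0.065 FPKM in all libraries. The part of these cells in the TDO2 level of that library was not tested.

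**Figure D1:**
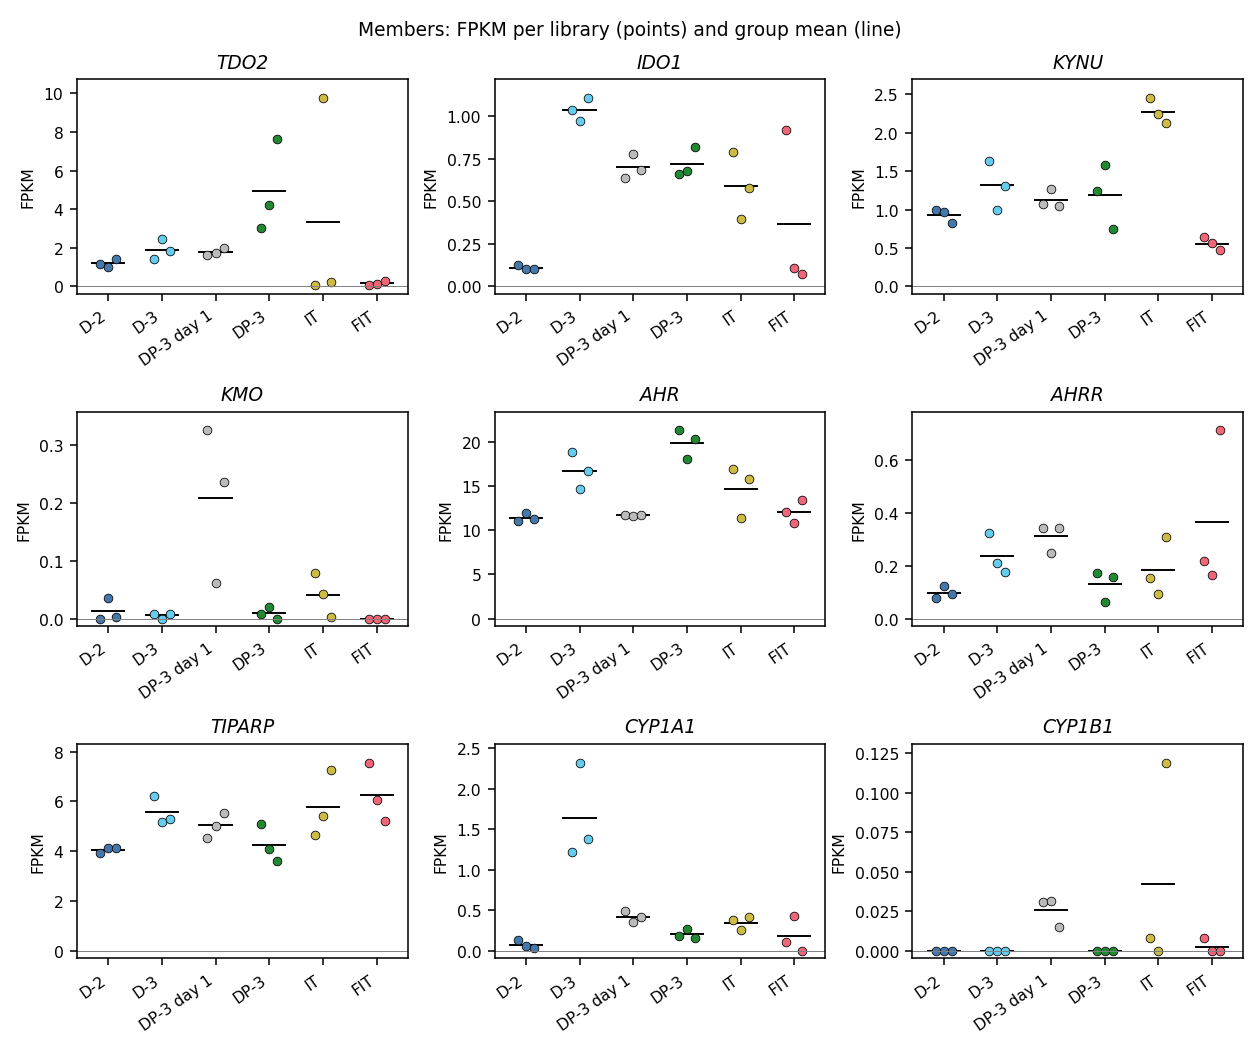
FPKM (vertical axes, linear, scaled per gene) of the 9 members in the 18 libraries by group (horizontal axes); points are libraries and lines are group means. TDO2 was low in the FIT libraries and in IT replicates 1 and 3, and reached 9.75 FPKM in IT replicate 2; KYNU was highest in IT; CYP1A1 was highest in D-3; KMO and CYP1B1 stayed near 0.

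IDO1 (ENSG00000131203, chromosome 8, 39902275 to 39928790, plus strand) carries out the same step and was low throughout. D-2 had 0.127, 0.102 and 0.1 FPKM. D-3 had 1.04, 0.975 and 1.11 FPKM, above all libraries of the other 5 groups. DP-3 day 1 had 0.641, 0.779 and 0.684 FPKM, and DP-3 had 0.660, 0.682 and 0.821 FPKM, so the printed tissue overlapped between its days. IT had 0.793, 0.395 and 0.578 FPKM. FIT spanned most of the whole range, with 0.918 FPKM in replicate 1 against 0.109 and 0.0745 FPKM in replicates 2 and 3, where replicate 3 had 8 estimated counts and was at the limit of detection. In the order D-3, DP-3, DP-3 day 1, IT, FIT and D-2, only D-3 stood clear of its neighbour.

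Against D-2, the log2 fold change of IDO1 was 2.96 ± 0.29 in D-3 and 2.66 ± 0.28 in DP-3, with no overlap of ranges in either case. Against FIT the SE was 0.82 to 0.89 in the 4 comparisons and the values were 1.42 for D-3, 1.10 for DP-3, 0.69 for IT and -1.57 for D-2. All 4 depended on FIT replicate 1, since without that library they were 3.28 for D-3, 2.94 for DP-3, 2.55 for IT and 0.27 for D-2, where the sign changed. Between the days of printed tissue it was 0.30 ± 0.24.

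Taken as 1 step, TDO2 and IDO1 summed to 1.13 to 1.51 FPKM in D-2, 2.47 to 3.42 FPKM in D-3, 2.26 to 2.66 FPKM in DP-3 day 1 and 3.70 to 8.43 FPKM in DP-3. FIT had 0.225 to 0.987 FPKM, below all of these, and IT had 0.786, 0.844 and 10.2 FPKM. The share of TDO2 in that sum was 90.0% to 93.4% in D-2, 82.1% to 90.3% in DP-3, 68.8% to 74.3% in DP-3 day 1 and 58.0% to 71.5% in D-3. TDO2 was thus the larger part in all 12 libraries of cells in culture. In the tumor-derived groups the share ran from 6.07% to 96.1% in IT and from 6.94% to 79.5% in FIT, and the libraries of 1 group did not share the enzyme with more RNA. The FIT shares came from few estimated counts, 30 to 49 for TDO2. IDO1 had 32 in FIT replicate 2 and 8, under the limit of detection, in FIT replicate 3.

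**Figure D2:**
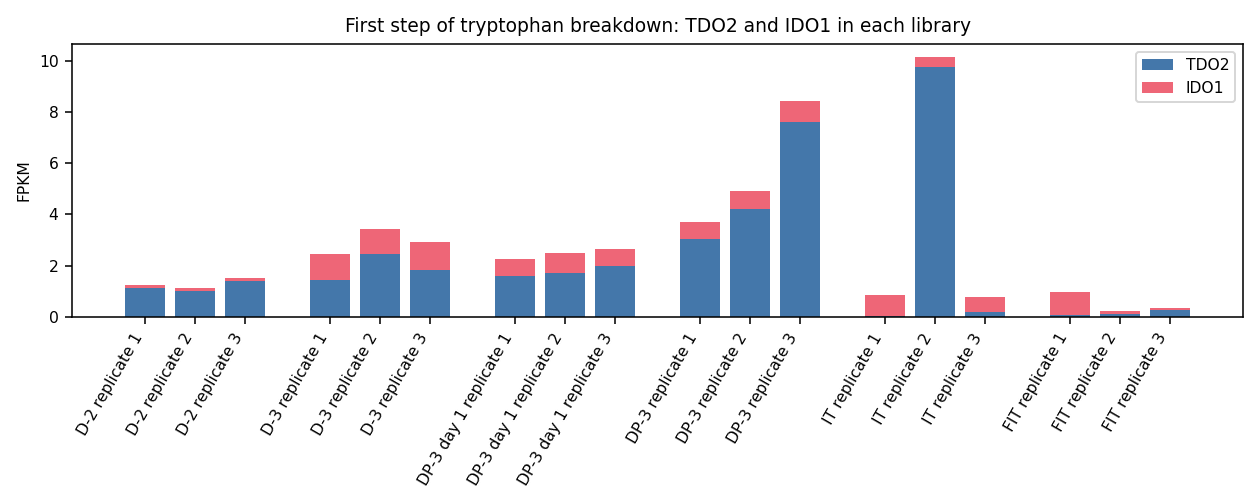
Stacked bars of TDO2 (blue) and IDO1 (red) in FPKM (vertical axis, linear from 0) for each of the 18 libraries (horizontal axis). TDO2 makes up most of the bar in all libraries of cells and printed tissue, and the tallest bar is IT replicate 2 at 10.2 FPKM.

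KYNU (ENSG00000115919, chromosome 2, 142877657 to 143055833, plus strand), the hydrolase that makes anthranilate and 3-hydroxyanthranilate, had its highest values in IT and its lowest in FIT. IT had 2.45, 2.24 and 2.13 FPKM, above every other library of the series. FIT had 0.637, 0.560 and 0.477 FPKM, below every other library. Between them lay D-2 with 0.989, 0.963 and 0.821 FPKM, DP-3 day 1 with 1.078, 1.26 and 1.05 FPKM, D-3 with 1.64, 1.001 and 1.31 FPKM and DP-3 with 1.24, 1.58 and 0.749 FPKM. Among the middle groups, D-3, DP-3 and DP-3 day 1 overlapped, and the D-2 libraries lay inside the range of DP-3. The log2 fold change against FIT was 2.02 ± 0.18 in IT, 1.20 ± 0.27 in DP-3, 1.17 ± 0.25 in D-3 and 0.87 ± 0.17 in D-2. Leaving out any 1 library kept the IT value between 1.92 and 2.11. The share of all genes whose IT and FIT libraries did not overlap was not determined, so nothing is read from the separation of KYNU. Between D-3 and D-2 the log2 fold change of KYNU was 0.26 ± 0.20, and between the days of printed tissue 0.33 ± 0.24.

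KMO (ENSG00000117009, chromosome 1, 241532134 to 241595642, plus strand), which hydroxylates kynurenine ahead of KYNU, was at or near the limit of detection. It was above 12 estimated counts in 6 of 18 libraries. FIT had 0 counts in all 3 libraries, D-3 at most 4 and DP-3 at most 12, while DP-3 day 1 had 118, 23 and 84 counts, or 0.325, 0.0614 and 0.236 FPKM. Against the limit of detection per library in DP-3, the day 1 level was at least 8.52-fold higher in CPM (counts scaled to library totals). The same day 1 libraries listed the most genes above 0 counts of all groups. KMO did not pass the FPKM filter for the fits. OPN3 lies across KMO on the opposite strand, and whether the counting used strand is not stated, so reads of the pair may be mixed.

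AHR (ENSG00000106546, chromosome 7, 16916359 to 17346152, plus strand), the receptor itself, was the most abundant member in every library. FPKM was 11.04, 11.9 and 11.3 in D-2 and 11.7, 11.6 and 11.7 in DP-3 day 1. It was 18.8, 14.7 and 16.7 in D-3 and 21.3, 17.99 and 20.3 in DP-3, above all libraries of D-2, DP-3 day 1 and FIT. IT had 16.9, 11.4 and 15.8 FPKM and FIT 12.1, 10.8 and 13.4 FPKM, which overlapped. In the printed tissue AHR was 1.04 ± 0.10 higher on the log2 scale on day 14 than on day 1. Against FIT the value was 0.85 ± 0.14 in DP-3, 0.41 ± 0.15 in D-3, 0.28 ± 0.18 in IT and 0.07 ± 0.10 in D-2, where the sign changed to -0.08 on the FPKM scale. Against D-2 it was 0.77 ± 0.10 in DP-3 and 0.30 ± 0.12 in D-3. AHR thus differed by at most 1.04 on the log2 scale in these comparisons, less than the 5.18 of TDO2. AC073332 overlaps AHR on the opposite strand.

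CYP1A1 (ENSG00000140465, chromosome 15, 74719542 to 74725536, minus strand), the monooxygenase most used as a readout of AHR, was highest in D-3, with 1.22, 2.32 and 1.38 FPKM. No other library reached 0.5 FPKM. D-2 had 0.138, 0.0565 and 0.0352 FPKM, with 42, 17 and 12 estimated counts. DP-3 day 1 had 0.496, 0.359 and 0.413 FPKM, DP-3 had 0.180, 0.269 and 0.163 FPKM and IT had 0.377, 0.253 and 0.414 FPKM. FIT was split, with 0.108 and 0.431 FPKM in replicates 1 and 2 and 0 counts in replicate 3. The log2 fold change was 4.14 ± 0.56 in D-3 against D-2, 1.36 ± 0.56 in DP-3 against D-2 and 3.01 ± 1.02 in D-3 against FIT. Without D-2 replicate 1 the first 2 values were 4.86 and 2.09, and without FIT replicate 2 the last was 4.63. In printed tissue CYP1A1 went from the day 1 levels to lower ones on day 14 by -0.78 ± 0.34 without overlap, the opposite direction to AHR in the same libraries.

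CYP1B1 (ENSG00000138061, chromosome 2, 38066973 to 38076154, minus strand), the relative of CYP1A1 that many tissues outside the liver express, was above 12 counts in 1 of 18 libraries. That was IT replicate 3, with 50 counts or 0.119 FPKM. The 14-day libraries of cells and printed tissue had 0 counts. RMDN2 overlaps CYP1B1 on the opposite strand. It was not tested in any comparison, and at this depth a low level cannot be told from absence.

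TIPARP (ENSG00000163659, chromosome 3, 156673235 to 156706770, plus strand), an ADP-ribosyltransferase that modifies AHR, ranged only from 3.63 to 7.56 FPKM. FIT had 7.56, 6.06 and 5.22 FPKM and IT 4.65, 5.42 and 7.25 FPKM. D-3 had 6.21, 5.19 and 5.31 FPKM, DP-3 day 1 had 4.55, 5.04 and 5.53 FPKM, DP-3 had 5.08, 4.08 and 3.63 FPKM and D-2 had 3.92, 4.15 and 4.14 FPKM. All neighbours in the order of means overlapped. Against FIT it was -0.47 ± 0.15 in D-2 and -0.43 ± 0.19 in DP-3, each without overlap, and -0.23 ± 0.19 in D-3. TIPARP and CYP1A1, both under AHR, thus had different orders of groups, with FIT first for TIPARP and D-3 first for CYP1A1. TIPARP-AS1 overlaps it on the opposite strand.

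AHRR (ENSG00000063438, chromosome 5, 321759 to 435110, plus strand), the repressor that competes with AHR for ARNT, was above the limit of detection in all 18 libraries but low. D-2 had 0.0766, 0.122 and 0.0929 FPKM and DP-3 had 0.173, 0.0633 and 0.157 FPKM. D-3 had 0.322, 0.211 and 0.175 FPKM, DP-3 day 1 had 0.342, 0.247 and 0.341 FPKM and IT had 0.152, 0.0940 and 0.309 FPKM. FIT replicates 1 and 2 had 0.218 and 0.166 FPKM, and replicate 3, the shallow library with high MYH13, had the highest value of all, 0.711 FPKM. The log2 fold change of AHRR in D-2 against FIT was -1.67 ± 0.60, and without FIT replicate 3 it was -0.82. It was 0.99 ± 0.39 higher in D-3 than in D-2, which did not overlap. All neighbours in the order of means overlapped. AC010442 overlaps AHRR on the same strand, so reads of the pair cannot be separated.

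**Figure D3:**
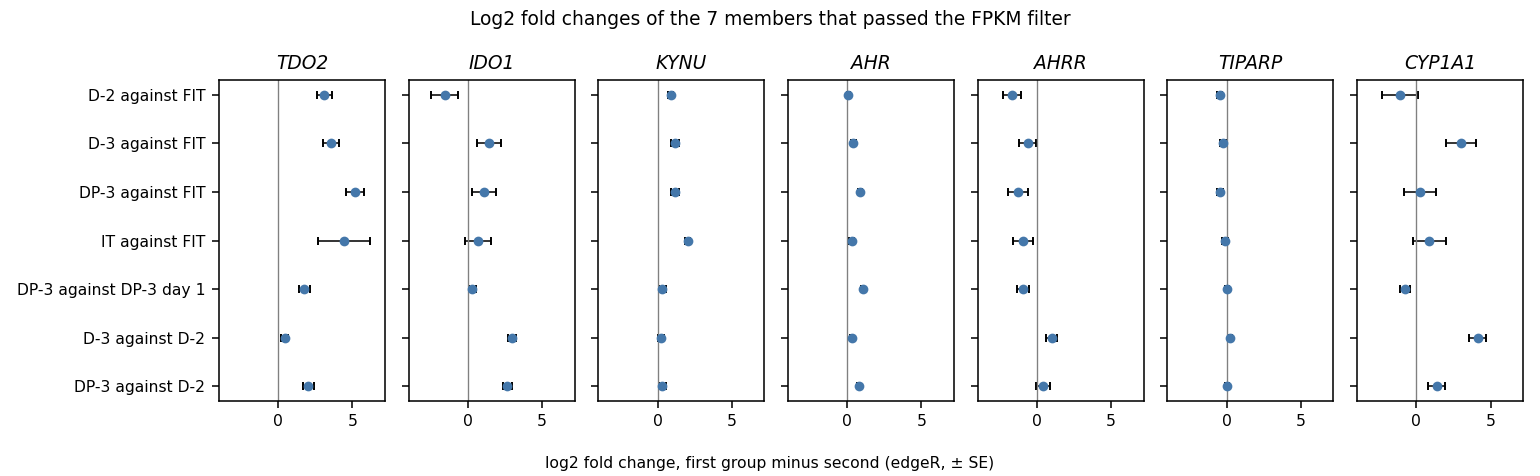
Log2 fold change ± SE (horizontal axes) of the 7 members that passed the FPKM filter, in the 7 comparisons (vertical axis); values right of 0 are higher in the first group named. TDO2 lies right of 0 in all 7, by 0.42 to 5.18, whereas TIPARP stays within 0.47 of 0.

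Of the 7 members that passed the FPKM filter, 1 met the threshold for differentially expressed genes (DEGs), an adjusted p below 0.05 by edgeR's quasi-likelihood test and at least 2-fold, in D-2 against FIT, where 14.6% of all genes tested did. The number was 2 in D-3 against FIT (6.45% of all genes), 2 in DP-3 against FIT (4.82%), 0 in IT against FIT (0.0%), 2 in DP-3 against DP-3 day 1 (7.56%), 2 in D-3 against D-2 (18.5%) and 2 in DP-3 against D-2 (1.04%). The members were chosen with these comparisons known, so nothing is read from the counts. The 4 comparisons with FIT share the FIT libraries.

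The bases ahead of the transcription start are shown for TDO2 and 3 AHR-driven members, to set their letters side by side. The AHR and ARNT pair is known to bind around the core GCGTG. It was searched on both strands (GCGTG or CACGC, in capitals) in the 250 bases before the RefSeq start, read 5′ to 3′ on the gene's strand from GRCh38.p14. The TDO2 start used here lies inside the longer span that the deposited data give for the gene.
TDO2, chr4:155903446-155903695, plus strand: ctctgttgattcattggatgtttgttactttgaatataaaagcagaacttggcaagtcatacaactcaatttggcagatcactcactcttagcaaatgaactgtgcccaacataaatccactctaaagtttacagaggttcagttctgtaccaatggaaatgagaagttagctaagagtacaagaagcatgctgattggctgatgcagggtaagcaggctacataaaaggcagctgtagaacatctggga
CYP1A1, chr15:74725529-74725778, minus strand: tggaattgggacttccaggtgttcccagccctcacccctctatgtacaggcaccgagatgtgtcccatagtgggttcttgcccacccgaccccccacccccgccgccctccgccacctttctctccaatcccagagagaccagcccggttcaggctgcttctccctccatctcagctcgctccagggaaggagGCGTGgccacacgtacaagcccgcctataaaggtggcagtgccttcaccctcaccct
TIPARP, first start, chr3:156674340-156674589, plus strand: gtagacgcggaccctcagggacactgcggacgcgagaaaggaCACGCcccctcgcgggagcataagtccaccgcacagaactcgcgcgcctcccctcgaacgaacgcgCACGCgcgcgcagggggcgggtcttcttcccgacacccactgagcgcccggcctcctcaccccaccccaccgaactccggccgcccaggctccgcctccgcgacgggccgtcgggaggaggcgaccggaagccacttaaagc
AHRR, first start, chr5:321464-321713, plus strand: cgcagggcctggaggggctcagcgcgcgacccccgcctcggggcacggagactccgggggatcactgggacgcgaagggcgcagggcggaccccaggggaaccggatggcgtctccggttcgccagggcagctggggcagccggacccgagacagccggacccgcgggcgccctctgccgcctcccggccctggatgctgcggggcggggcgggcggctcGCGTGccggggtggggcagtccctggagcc
The TDO2 stretch had no match. CYP1A1 had 1, starting 57 bases before the start of transcription, TIPARP had 2, at 208 and 142 bases, and AHRR had 1, at 30 bases. Among the starts not shown, TIPARP starts 2 and 3 had 0 matches, and AHRR start 2 had matches at 247 and 42 bases. Over the 7 members with an entry, 4 of 10 start sites held the core, and 11313 of 35116 promoters of all genes (32.2%) did. A match of 5 bases is a description of the letters and not of binding, and the windows leave out more distant sites.

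For each member with a mean of at least 1 FPKM in a group, the genes with the most similar levels were ranked by Pearson's r of log2(FPKM + 0.1) over the 18 libraries, among 14210 genes. The 18 points fall into 6 groups and share library depth, so r is a description only. Nearest to TDO2 were SIMC1 (r = 0.878), C3AR1 (r = 0.828) and GUCY1B1 (r = 0.824), each of which also had its lowest mean in FIT. Nearest to IDO1 was the unnamed transcript AL138828 (r = 0.885), followed by RAB27B (r = 0.881) and SIKE1 (r = 0.878). BACE2 (r = 0.906), with its highest mean in IT and its lowest in FIT, was nearest to KYNU. For AHR these were ITGA1 (r = 0.863) and CYP24A1 (r = 0.814), the latter the enzyme that inactivates vitamin D, and for TIPARP AL645939 (r = 0.909) and TBX2-AS1 (r = 0.889). SPX (r = 0.911), ZNF280C (r = 0.905) and SLC31A1 (r = 0.903), a copper transporter, were nearest to CYP1A1, with ALAS1, the first enzyme of heme synthesis, at r = 0.901. Members were not among each other's nearest genes.

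The rest of the pathway was followed in 63 companion genes in 8 lists: tryptophan transport, kynurenine pathway, NAD synthesis and salvage, other tryptophan uses, AHR machinery, AHR targets, interferon-gamma response and glucocorticoid response, the last 2 because interferon-gamma and glucocorticoids are known inducers of IDO1 and TDO2. In all, 43 were tested in every comparison and 16 in none, among them IDO2, HAAO and ACMSD of the kynurenine pathway, IFNG itself, DDC and TPH2 of serotonin synthesis, and CYP1A2, ALDH3A1 and UGT1A6 of the AHR targets, none of which exceeded 0.21 FPKM in any library. A total of 24 genes passed the threshold in at least 1 comparison.

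D-3 against D-2 gave the most calls. Here 14 companion genes rose and 2 fell of 47 tested (34.0%, median log2 fold change 0.37). Over all genes tested, the calls were 2946 up and 800 down (18.5%, median 0.11), so rising calls were the more common in general. The companion calls came from 7 of the 8 lists: 2 of 5 tested in tryptophan transport, 2 of 7 in the kynurenine pathway, 2 of 8 in NAD synthesis and salvage, 3 of 5 in other tryptophan uses, 3 of 6 in AHR machinery, 2 of 9 in interferon-gamma response and 2 of 5 in glucocorticoid response. SLC3A2, the heavy chain of the tryptophan carrier, rose from 31.1 ± 3.09 to 90.9 ± 18.9 FPKM (SD, n = 3; log2 fold change 1.29 ± 0.18, adjusted p = 0.00309), and SLC7A8 rose at a low level. SLC7A5, the other chain of that carrier, averaged 56.7 ± 2.72 FPKM in D-2 and 80.7 ± 24.1 FPKM in D-3 and did not pass. IL4I1, a secreted oxidase that turns tryptophan into AHR ligands, rose from 0.342 ± 0.0579 to 4.08 ± 0.917 FPKM (3.30 ± 0.27, adjusted p = 0.00115). QPRT, which leads quinolinate into NAD, rose from 0.176 ± 0.0965 to 1.23 ± 0.134 FPKM (2.54 ± 0.44, adjusted p = 0.00591). WARS1, the tRNA synthetase that loads tryptophan and is itself induced by interferon-gamma, rose from 10.8 ± 0.229 to 37.2 ± 1.25 FPKM (1.54 ± 0.09, adjusted p = 0.000642). IL4I1 and QPRT were both counted in the kynurenine pathway list. The other 5 genes tested in that list, including AFMID, KYAT1 and GOT2, did not pass.

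In the same comparison NAMPT, the main enzyme of NAD salvage, rose by 1.03 ± 0.23, and NMRK2 went from 0 counts in all D-2 libraries to 26 to 44 counts, at least 3.25-fold higher in CPM against the limit of detection per library. TPH1 and INMT rose at levels below 0.6 FPKM. In the AHR machinery ARNT, the partner of AHR, rose by 1.51 ± 0.30 and its relative ARNT2 fell by 2.57 ± 0.32, as did the chaperone HSP90AA1 by 1.10 ± 0.17. IRF1, which drives IDO1 downstream of interferon-gamma, rose by 2.09 ± 0.14 (adjusted p = 0.000713), and CXCL10 rose from 0.138 ± 0.135 to 2.60 ± 0.313 FPKM (3.94 ± 0.95, adjusted p = 0.0181), while JAK2 did not pass. TSC22D3 and PER1, both induced by glucocorticoids, rose by 1.45 ± 0.15 and 1.68 ± 0.46, 2 of the 5 tested in that list. The call of PER1 was lost in 5 of the 6 fits that left out 1 library, and its value was 0.99 without D-3 replicate 1. FKBP5, also induced by glucocorticoids, was at -0.48 ± 0.12 and did not pass. In the AHR target list neither NQO1 nor NFE2L2 passed, in contrast to the level of CYP1A1. On the FPKM scale the median of all genes in this comparison was 0.19 higher than on the scaled counts, and 16 companion genes rose and 1 fell. The 5 adipocyte markers summed to 2.55 to 3.61 FPKM in D-3 against 0.168 to 0.306 FPKM in D-2. Most of the D-3 sum was FABP4, at 2.195 to 3.199 FPKM. PLIN1 was also higher, at 0.255 to 0.432 against 0 to 0.0911 FPKM. LEP was at most 0.0151 FPKM in D-3, and ADIPOQ was below 0.02 FPKM throughout. The 7 macrophage markers summed to 66.1 to 91.0 FPKM in D-3 against 47.6 to 50.4 FPKM in D-2, mostly CD68. CD163 and LYZ were also higher in D-3. CSF1R was lower, at 0.804 to 1.45 against 1.79 to 1.86 FPKM, and ADGRE1 and PTPRC overlapped. The 6 fibroblast markers summed to 5.97 to 6.36 against 14.1 to 15.4 FPKM, mostly PDGFRA. COL3A1, DPT and PI16 were also lower in D-3, whereas LUM was higher, at 0.715 to 0.747 against 0.372 to 0.529 FPKM. The part of these markers in the result was not tested. Leaving out 1 library, 8 of the 16 were called in all 6 fits and 3 more in the 3 fits that tested them, and the count fell to 10 without D-3 replicate 1 and 9 without D-3 replicate 3.

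**Figure D4:**
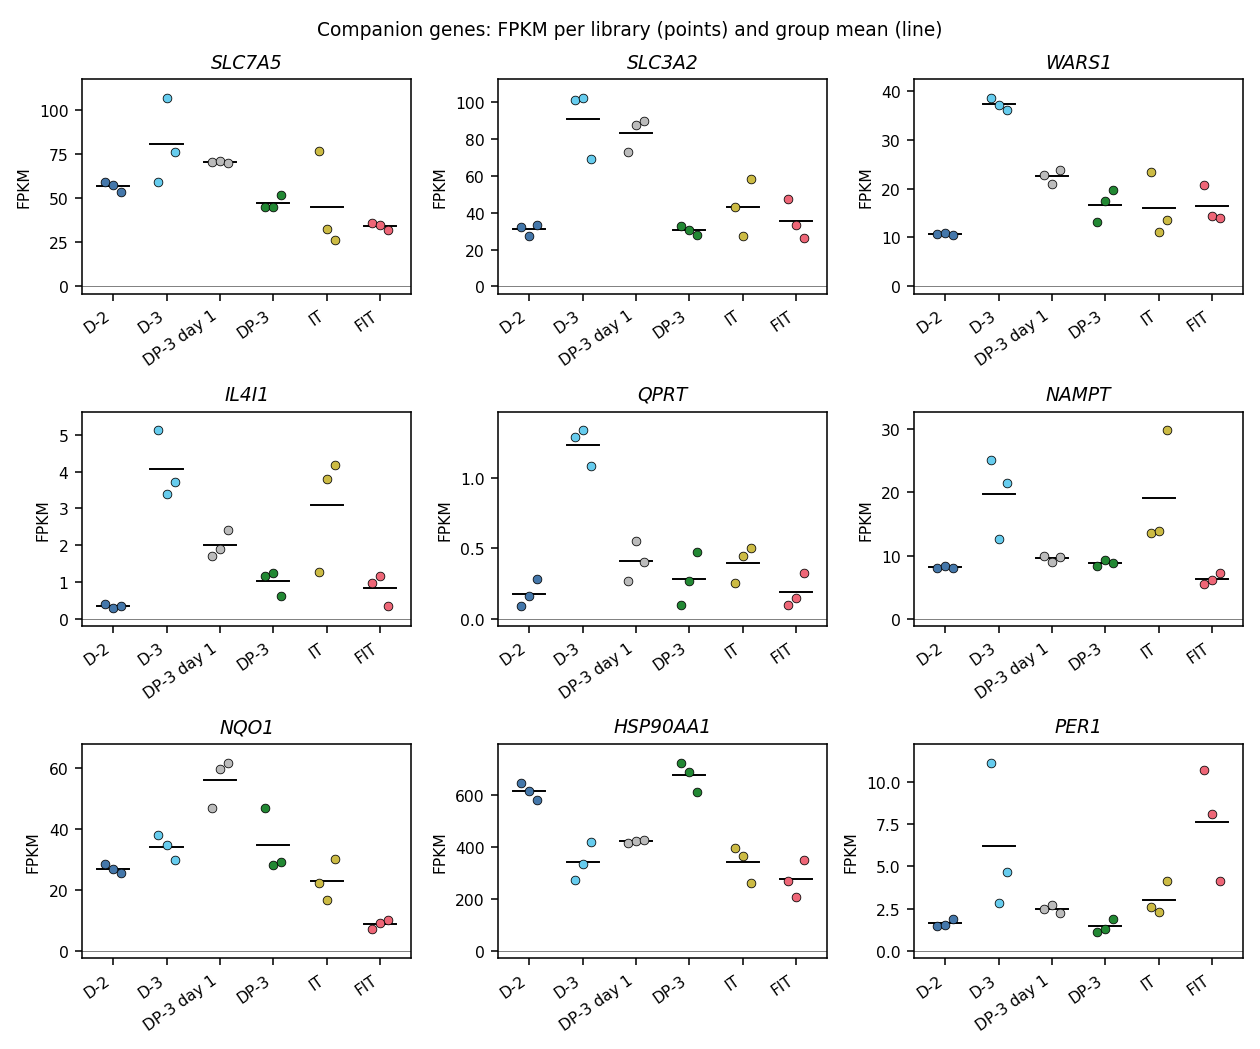
FPKM (vertical axes, linear, scaled per gene) of 9 companion genes by group (horizontal axes), with points for libraries and lines for group means. SLC3A2, WARS1, IL4I1 and QPRT were highest on average in D-3, and NQO1 was lowest in FIT.

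In D-3 against FIT, 7 companion genes were higher and 2 lower of 47 tested (19.1%, median 0.16). Over all genes tested, the calls were 929 higher and 470 lower (6.45%, median 0.02). Both chains of the tryptophan carrier passed, SLC7A5 with 80.7 ± 24.1 against 34.1 ± 2.00 FPKM (1.18 ± 0.22, adjusted p = 0.0205) and SLC3A2 with 90.9 ± 18.9 against 35.7 ± 10.8 FPKM (1.29 ± 0.26, adjusted p = 0.0228). IL4I1 was 2.20 ± 0.47, QPRT 2.68 ± 0.51, NAMPT 1.60 ± 0.26 and WARS1 1.13 ± 0.18 higher. NQO1, a quinone reductase under both AHR and NFE2L2, was 34.2 ± 4.02 against 8.89 ± 1.497 FPKM (1.88 ± 0.19, adjusted p = 0.00238). INMT and ARNT2 were lower. None of the 9 interferon-gamma and none of the 5 glucocorticoid genes tested passed by edgeR, with 2 and 1 below an unadjusted p of 0.05. Only NQO1 was called in all 6 fits that left out 1 library. Leaving out D-3 replicate 1 gave 3 calls and leaving out D-3 replicate 3 gave 1. When FIT replicate 1, 2 or 3 was dropped, the numbers were 5, 4 and 10.

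In D-2 against FIT, 4 companion genes were higher and 9 lower of 45 tested (28.9%, median -0.12). Over all genes tested, the calls were 747 higher and 2099 lower (14.6%, median -0.09). NQO1 was 27.0 ± 1.54 against 8.89 ± 1.497 FPKM (1.75 ± 0.15, adjusted p = 0.00159). The chaperone HSP90AA1 and its co-chaperone PTGES3, which hold AHR in its ligand-binding form, were 1.31 ± 0.18 and 1.32 ± 0.20 higher, and the transporter SLC16A10 was higher at 0.203 ± 0.00619 FPKM. Lower in D-2 were the glucocorticoid-induced TSC22D3 by -1.99 ± 0.38, PER1 by -2.08 ± 0.33 and DUSP1 by -1.46 ± 0.41, 3 of the 5 tested in that list, and the interferon-gamma genes JAK2 by -1.52 ± 0.34 and IRF1 by -1.65 ± 0.21. ARNT, NMNAT2, TPH1 and INMT were also lower. Of 7 kynurenine pathway genes tested 0 passed by edgeR, with 1 below an unadjusted p of 0.05. That gene was GOT2, which was 0.66 ± 0.10 higher (edgeR, adjusted p = 0.00403) and failed only the 2-fold limit. Without 1 library, 6 calls were made in all 6 fits (NQO1, HSP90AA1, PTGES3, PER1, TSC22D3 and IRF1) and those of INMT and TPH1 in the 3 fits that tested them. The count was 8 without D-2 replicate 1 and 8 without FIT replicate 1. Markers differed between FIT and the cultures in the same comparisons. The 6 fibroblast markers summed to 21.4 to 29.4 FPKM in FIT, 14.1 to 15.4 FPKM in D-2, 5.97 to 6.36 FPKM in D-3 and 12.7 to 15.4 FPKM in DP-3, and the 7 osteoblast and Saos-2 markers to 22.8 to 24.6 FPKM in FIT and at most 8.07 FPKM in these 3 cultures. Most of the fibroblast sum was PDGFRA, at 24.25, 28.26 and 12.6 FPKM in FIT and 11.6 to 11.9 FPKM in D-2. COL3A1 was at 0, 0.0516 and 3.94 FPKM in FIT and 0.773 to 1.04 FPKM in D-2. Most of the osteoblast and Saos-2 sum in FIT was COL1A1, at 19.6 to 21.0 FPKM. The part of these markers in the calls against FIT was not tested.

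In DP-3 against FIT, 3 companion genes were higher and 5 lower of 46 tested (17.4%, median -0.05). Over all genes tested, the calls were 332 higher and 633 lower (4.82%, median -0.06). NQO1 was 34.8 ± 10.6 against 8.89 ± 1.497 FPKM (2.09 ± 0.24, adjusted p = 0.00825), HSP90AA1 677 ± 57.8 against 277 ± 71.8 FPKM (1.42 ± 0.21, adjusted p = 0.0154) and PTGES3 1.34 ± 0.18 higher. PER1 was -2.25 ± 0.37, DUSP1 -1.61 ± 0.38, TSC22D3 -1.44 ± 0.36, JAK2 -1.30 ± 0.32 and IRF1 -1.05 ± 0.23. No gene of tryptophan transport (0 of 5) or the kynurenine pathway (0 of 7) passed by edgeR, with 2 below an unadjusted p of 0.05 in each, where TDO2 had its widest difference. Of these, SLC7A5 was 0.60 ± 0.14 higher (edgeR, adjusted p = 0.0454) and failed only the 2-fold limit. NQO1 was the only call in all 6 fits without 1 library. Dropping DP-3 replicate 1, 2 or 3 gave 1, 2 and 4 calls, and dropping FIT replicate 1 or 2 gave 2 and 4.

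In IT against FIT no companion gene passed by edgeR (0 of 46), with 9 below an unadjusted p of 0.05, and 0 of all 21183 genes passed (0.0%), with 2693 below an unadjusted p of 0.05. DESeq2 called 5 of the companion genes and 661 of all genes, one fit of all 18 libraries 5 and 553, and edgeR without a filter on low values 0 and 53. NAMPT averaged 19.1 ± 9.34 FPKM in IT and 6.26 ± 0.864 FPKM in FIT, and NQO1 23.1 ± 6.76 and 8.89 ± 1.497 FPKM, in both cases without overlap. PECAM1 and CDH5, endothelial markers, had a higher FPKM in each library of these tumor-derived groups than in any other library, and the 6 endothelial genes summed to 4.21 to 6.52 FPKM in IT, 3.90 to 6.08 FPKM in FIT and at most 2.36 FPKM elsewhere. Most of that sum was PECAM1. KDR was below 0.051 FPKM in all libraries. VWF was highest in DP-3 day 1 replicate 1, at 0.169 FPKM, against 0.00465 to 0.0137 FPKM in FIT. TEK in IT replicate 3 (0.0912 FPKM) was below DP-3 day 1 replicate 3 (0.156 FPKM). CLDN5 was at 0 in FIT replicate 1 and IT replicate 3. The part of endothelial cells in the values of IT and FIT was not tested.

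In DP-3 against DP-3 day 1, 0 companion genes rose and 4 fell of 46 tested (8.70%, median -0.11). Over all genes tested, the calls were 375 up and 1196 down (7.56%, median -0.06). SLC3A2 fell from 83.6 ± 9.17 to 30.6 ± 2.51 FPKM (-1.19 ± 0.11, adjusted p = 0.00182). MAOA, which degrades serotonin, fell from 1.27 ± 0.151 to 0.372 ± 0.0877 FPKM (-1.503 ± 0.23, adjusted p = 0.00616). TSC22D3 and ARNT2 fell by 1.04 ± 0.15 and 1.003 ± 0.29. No kynurenine pathway gene (0 of 7) passed by edgeR, with 3 below an unadjusted p of 0.05, beside the higher TDO2 and AHR on day 14. On the FPKM scale the median of all genes was 0.23 lower than on the scaled counts. SLC3A2 and MAOA were called in all 6 fits without 1 library, and the count was 2 without DP-3 day 1 replicate 1 and 2 without DP-3 replicate 1.

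In DP-3 against D-2, no companion gene passed by edgeR (0 of 44, median 0.07), with 13 below an unadjusted p of 0.05, beside 1.04% and a median of 0.03 over all genes. DESeq2 called 3 and one fit of all 18 libraries 2. The count was 1 without DP-3 replicate 3. In this comparison TDO2 and IDO1 were both higher in DP-3, without overlap. WARS1 was also higher without overlap, with a mean of 16.7 FPKM in DP-3 and 10.8 FPKM in D-2, but was not called. SLC7A5 and SLC3A2 averaged 47.2 and 30.6 FPKM in DP-3 and 56.7 and 31.1 FPKM in D-2.

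**Figure D5:**
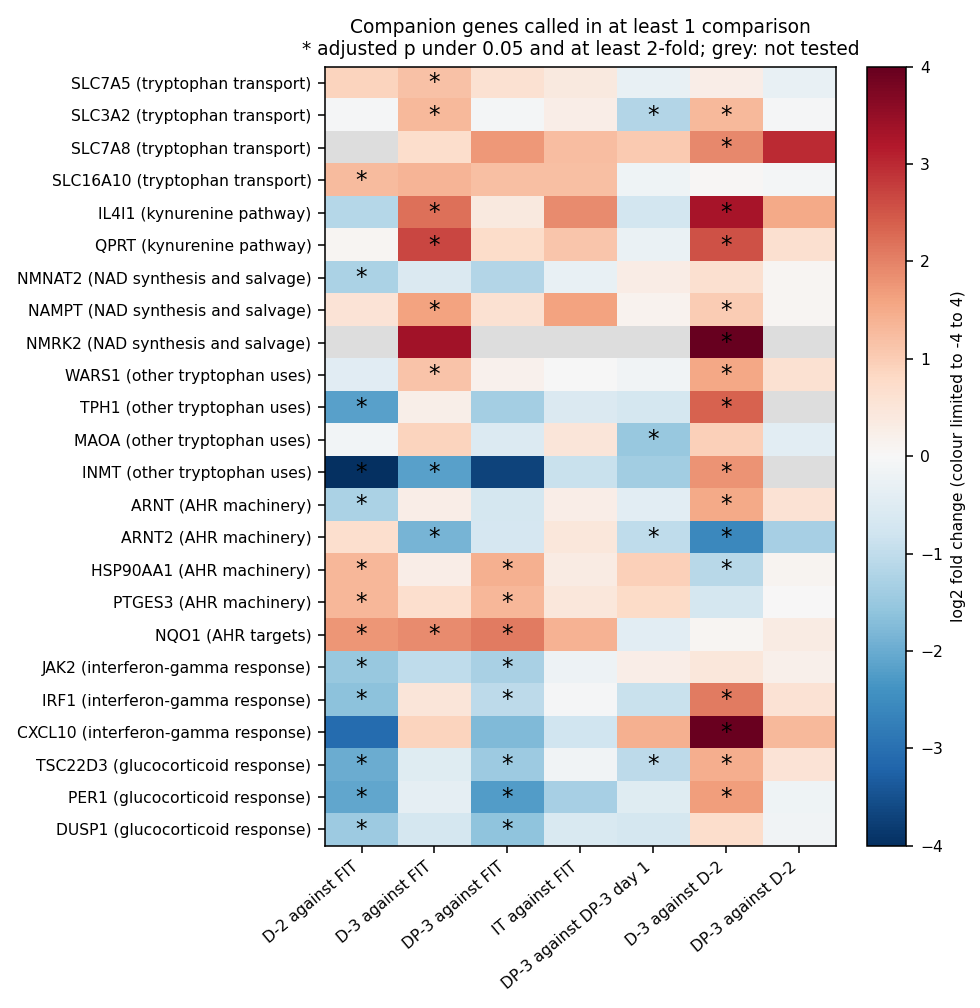
Log2 fold changes (colour, limited to -4 to 4) of the 24 companion genes called in at least 1 comparison (rows, with their list) in the 7 comparisons (columns); asterisks mark genes with an adjusted p below 0.05 and at least 2-fold, and grey cells were not tested. NQO1 is marked in 3 of the 4 comparisons with FIT, 3 glucocorticoid genes for D-2 and DP-3, and 16 genes in D-3 against D-2.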

How the data were processed

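The authors prepared poly(A) RNA libraries with dUTP strand marking and sequenced paired reads. Per the submitters' processing notes they used cutadapt 1.9, HISAT2 2.0.4 and StringTie 1.3.4d, with DESeq2 and edgeR also listed. The deposited FPKM values are the authors' StringTie values. The deposited estimated counts are whole numbers made by the authors in a way not given in the sources used here. Of counts up to 40, 35.0% are multiples of 4. That about 4 counts stand for 1 read pair was assumed, and this share alone does not establish it. The genome build is not given there either. GENCODE 29 held 48223 of the listed genes, and the positions of 99.81% overlapped those on GRCh38.

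Libraries were grouped by their titles, and 0 columns of sample values were left unused. The members, companion lists and tests were chosen with earlier results of these data known. Counts of the 6 libraries of a comparison were scaled by TMM and fitted with edgeR 4.0.16 (glmQLFit, glmQLFTest) in R 4.3.3, keeping genes that reached 0.1 FPKM in 3 or more of them. DEGs had an adjusted p below 0.05 (Benjamini-Hochberg over all genes tested) and at least 2-fold. Each SE was derived from the log2 fold change and the F of its test. Alternatives were median-of-ratios scaling, DESeq2 1.42.0, no filter or a minimum of 1 FPKM, limma 3.58.1 on log2(FPKM + 0.1) and log2(FPKM + 1), a joint fit of 18 libraries, the replicate number as block, and fits that dropped 1 library. The code was tested on simulated data. No 2 libraries had identical counts. Genes named one by one were all members, companion genes called in at least 1 comparison (at most the 4 largest per list and comparison) or measured near 0, and those most correlated with a member. Genes described without a call were named after their values were seen. Promoters came from RefSeq (GRCh38.p14); those of IDO1 and CYP1B1 were not used here. Python 3.11.15, pandas 2.3.3 and matplotlib 3.10.9 made the tables and plots.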

Additional observations from a re-analysis of the deposited data

Results flagged for a closer look

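WARS1, the synthetase that loads tryptophan onto its tRNA, lay above FIT in D-3 and below FIT in D-2, and only the D-3 side passed the threshold. Its 3 D-3 libraries had 36.0 to 38.5 FPKM and were all above the FIT libraries, at 13.9 to 20.8 FPKM, whereas its 3 D-2 libraries had 10.5 to 10.98 FPKM and were all below them. The log2 fold change against FIT was 1.13 in D-3 (edgeR, adjusted p = 0.0122) and -0.45 in D-2 (adjusted p = 0.0601, under 2-fold), a difference of 1.58. The direct comparison of D-3 with D-2 gave 1.54 ± 0.09 (edgeR, adjusted p = 0.000642) and was called in all 6 fits that left out 1 library. The call in D-3 against FIT was lost without D-3 replicate 1, D-3 replicate 3 or FIT replicate 2. Over all 6 such fits its value lay between 1.001 and 1.31.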

How the results depend on the processing

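Among the companion genes, all called values kept their direction under every alternative that gave one. Counts of calls moved by more than 1.5 times as follows. With limma on log2(FPKM + 1) they were 7 for D-2 against FIT (13 in the report), 4 for DP-3 against FIT (8), 2 for DP-3 against DP-3 day 1 (4) and 8 for D-3 against D-2 (16). With DESeq2 they were 5 for IT against FIT and 3 for DP-3 against D-2 (0 in each), and with one fit of all 18 libraries 5 and 2. With the replicate number as a block DP-3 against FIT fell from 8 to 1, and the other 6 comparisons stayed within 1.5 times. Deviations of same-numbered libraries correlated by -0.044 to 0.043, so the numbers gave no sign of a pairing, and the replicate block is given here only. Pairing of libraries with different numbers, which is possible for IT and FIT, was not tested. Leaving out 1 library gave 8 to 13 calls for D-2 against FIT, 1 to 10 for D-3 against FIT, 1 to 8 for DP-3 against FIT, 0 for IT against FIT, 2 to 3 for DP-3 against DP-3 day 1, 9 to 15 for D-3 against D-2 and 0 to 1 for DP-3 against D-2. The cause was not tested. Over all genes, the share of calls that were higher in the first group moved by more than 10 percentage points with limma on log2(FPKM + 0.1) in DP-3 against FIT (34.4% to 21.6%), DP-3 against DP-3 day 1 (23.9% to 7.06%) and D-3 against D-2 (78.6% to 91.1%). Estimated counts reached at most 306 for IDO1, 118 for KMO and 50 for CYP1B1, which limits the precision of their values. Of the members' fold changes, 17 of 288 without 1 library and 44 of 369 under other settings moved by more than 1 SD. Over the settings that kept all libraries, the log2 fold change ran from 2.29 to 5.23 for TDO2 in DP-3 against FIT, 0.92 to 3.26 for TDO2 in D-2 against FIT, 0.88 to 2.97 for IDO1 in D-3 against D-2 and 1.27 to 4.29 for CYP1A1 in D-3 against D-2, lowest in each case with the larger pseudocount.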
